A study of Mus musculus with 16 samples.

Results

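Macrophages sorted from larger untreated mouse gliomas were compared with macrophages sorted from smaller ones. All mice carried Nestin-Tv-a, which lets an avian retrovirus enter Nestin-positive brain cells, together with loss of Ink4a/Arf (Nestin-Tv-a;Ink4a/Arf-/-, mixed background). Tumors arose after DF-1 cells releasing RCAS-PDGF-B-HA, a virus that carries a growth factor gene, were placed in the right frontal cortex at 5 to 6 weeks of age. Every mouse in this comparison received only the vehicle, 20% captisol, by mouth once a day for 7 days. Of the other mice of the study, 2 were further Vehicle mice and 8 received BLZ945. BLZ945 is an inhibitor of the kinase of the CSF-1 receptor, which macrophages need for survival. Mice entered the study when an MRI scan showed a tumor between 4.5 and 40 mm3, and each array holds RNA from the CD11b+ Gr.1- cells of 1 mouse.

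Of the 16 arrays, 6 entered the comparison: Vehicle mice with a labelled initial tumor volume. The label gives no unit. The larger side, above 20, held replicates 5, 6 and 7 with volumes of 27.3, 21.7 and 20.65, and the smaller side, below 14, held replicates 3, 4 and 8 with 13.3, 11.9 and 11.9. Vehicle replicates 1 and 2 have no labelled volume and were placed on neither side. All 3 larger-side mice were 11.29 weeks old, as was replicate 4 of the smaller side, while smaller-side replicates 3 and 8 were 11.43 weeks old. Replicates 4, 5 and 7 were male and replicates 3, 6 and 8 female. Volume was not randomized, so it cannot be told apart from anything else that differed between these mice. In what follows, a difference is the mean of the larger side minus the mean of the smaller side in log2 units, where 1 is a 2-fold change. A gene is said to have risen or fallen where the adjusted p of limma's 3 against 3 comparison over 12394 genes was under 0.05.

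Macrophages in a glioma come from microglia, the resident macrophages of the brain, and from monocytes that enter from the blood. Microglia are known by genes such as Tmem119, P2ry12 and Cx3cr1, and cells of blood origin carry more Cd44, Lgals3 and S100 family transcripts. As monocytes become tissue macrophages they can take on inflammatory, interferon-driven, matrix-degrading or repair-related programs, and many of these genes respond to the tumor environment.

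Macrophage markers were high on all 6 arrays. The Gr1 antigen genes Ly6g and Ly6c1 were not measured, so the Gr.1- part of the sort label was not checked. Itgam, which encodes CD11b, is taken up below. Csf1r, the receptor that BLZ945 targets, was at 13.72, 13.70 and 13.54 in smaller-side replicates 3, 4 and 8 and at 13.73, 13.62 and 13.67 in larger-side replicates 5, 6 and 7. These ranges overlap, with a difference of 0.02 ± 0.12 (SE, adjusted p = 0.934). Of the 3 Csf1r probe sets only this 1 had a positive difference, and the lowest was -0.55. Over the 8 markers of the sorted cells the mean level was 11.3 to 11.7 on the smaller and 11.1 to 11.4 on the larger side. Xist and Eif2s3y, expressed from the X and Y chromosomes, matched the labelled sex on all 6 arrays.

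The arrays of the larger side had a wider spread of values. The SD of an array's log2 values was 2.36 ± 0.0233 on the smaller and 2.47 ± 0.015 on the larger side (SD, n = 3 each), with no overlap. The exact two-sided permutation p was 0.1, the smallest that 20 labellings allow. The 3′ minus 5′ difference of the Gapdh and beta-actin control probe sets, a measure of RNA integrity and labelling, was 0.629 ± 0.203 against 0.943 ± 0.093 (n = 3 each, exact permutation p = 0.1). The part of either array property in the gene differences below cannot be told apart from tumor volume with these 6 arrays.

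**Figure D1:**
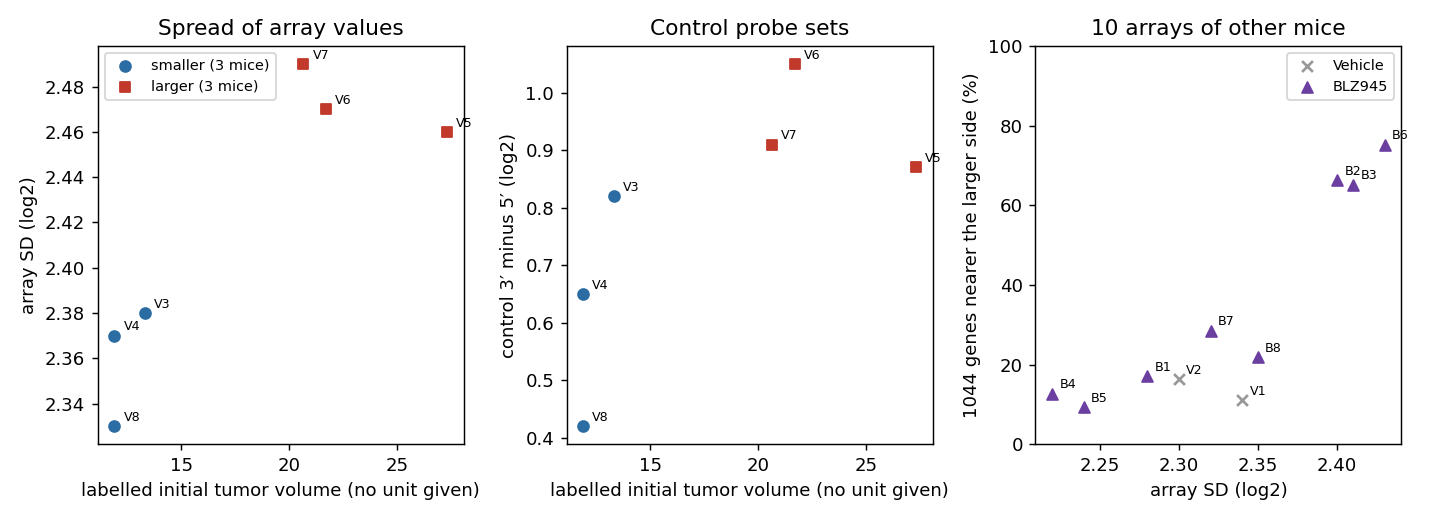
The left and middle panels plot each array's SD of log2 values and its mean 3′ minus 5′ control difference (log2) against the labelled initial tumor volume for the 3 smaller (circles) and 3 larger (squares) Vehicle tumors. The right panel plots, for the 10 arrays of other mice, the percentage of the 1044 changed genes that lay nearer the larger-side mean than the smaller-side mean, against array SD; BLZ945 arrays 2, 3 and 6, which had the widest spreads of the 10, lay at 66.3%, 65.2% and 75.2%, and the other 7 at 9.29% to 28.5%.

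The sorted CD11b+ Gr.1- cells of larger tumors had higher levels of G0s2, Serpinb2, Cxcl2, Ptgs2, Il1rn, Mmp9 and S100a9. They had lower levels of the microglial genes Tmem119 and Mef2c. Which of the sorted cells held these transcripts was not tested. In all, 1044 of 12394 genes changed (8.42%), 565 higher (4.56%) and 479 lower (3.86%). A difference of at least 1 was reached by 162 of the rises and 19 of the falls. The values of the 2 sides did not overlap for 2197 genes that were higher (17.7%) and 2653 that were lower (21.4%) on the larger side.

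These calls depended on each array and on what else was fitted. With the array SD as a covariate, with the age cohort as a covariate, with the 3′ minus 5′ difference as a covariate, or as a slope on log2 volume, 0 genes passed in limma, although 1792, 2333, 2327 and 3308 genes had an unadjusted p under 0.05. With sex as a covariate 3 genes passed, and with all 16 arrays sharing 1 estimate of spread 3 passed. Without replicate 3, 4 or 5, 0 genes passed. Without replicate 7 there were 10, without replicate 6 173 and without replicate 8 1543. All 565 rises and all 479 falls kept their sign with sex or age as a covariate and without each array in turn. Where the sides of a gene do not overlap, none of these fits can change its sign. The kept signs are therefore no separate check for such genes. With the array SD as a covariate 522 of the rises and 393 of the falls did. Repeating quantile normalization, which gives every array the same spread, left 144 higher genes (1.16%) and 149 lower genes (1.2%), of which 275 were among the 1044. Centring and scaling each array moved the split, with 197 higher and 490 lower of 687, or 28.7% higher against 54.1% in the deposited values.

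The largest rise was that of G0s2, an inhibitor of the lipase ATGL that is induced in activated leukocytes. Its level was 5.92, 4.22 and 4.84 on arrays 3, 4 and 8 of the smaller side and 10.30, 8.16 and 10.11 on arrays 5, 6 and 7 of the larger side. The lowest larger-side value lay above the highest smaller-side value by more than 2 log2 units. The difference was 4.53 ± 0.62 (SE, adjusted p = 0.0351).

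Serpinb2, which encodes the plasminogen activator inhibitor PAI-2 of activated monocytes, had the second largest rise. It was at 3.54, 3.10 and 3.42 in the smaller tumors and at 7.64, 6.57 and 8.90 in the larger ones. The difference was 4.35 ± 0.51 (adjusted p = 0.0309). F5, coagulation factor V, followed with 5.76, 3.98 and 4.66 against 9.05, 7.73 and 9.13, a rise of 3.83 ± 0.51 (adjusted p = 0.0332). In both genes the sides were far apart and array 6 was the lowest of the larger side.

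Alox15, the 12/15-lipoxygenase of resident and IL-4-exposed macrophages, was at 6.54, 5.23 and 5.55 against 10.15, 8.43 and 9.89, and rose by 3.71. Ccr3, the eotaxin receptor, was at 4.47, 3.57 and 4.32 against 8.55, 6.55 and 8.17, and rose by 3.64. The next rises were those of Cyp26a1, a retinoic acid hydroxylase (3.61), Cd24a, a surface glycoprotein (3.57), S100a9, a calcium-binding alarmin of neutrophils and monocytes (3.53), Rflnb, which binds filamin (3.45), and Nfe2, a transcription factor of blood cells (2.99). These 10 genes shared an order over the arrays that the choice of genes did not use. Array 6, from the only female mouse of the larger side, was the lowest of that side in 10 of 10. Array 3 was the highest of the smaller side in 9 of 10, and array 4 the lowest in 9 of 10. The 10 genes are not independent of each other, and these counts were not made over all changed genes.

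Vehicle replicates 1 and 2, whose volume is not labelled, lay in the gap between the sides for most of these genes. Replicate 1 was in the gap for 9 of the 10 and replicate 2 for 7 of the 10, with the others at or above the lowest larger-side value. G0s2, for example, was at 6.43 in replicate 1 and 8.11 in replicate 2. All 10 rises passed again after repeated quantile normalization and after centring and scaling, and 0 of 10 passed without replicate 3, 4 or 5, with the highest of those adjusted p-values at 0.101 for G0s2.

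**Figure D2:**
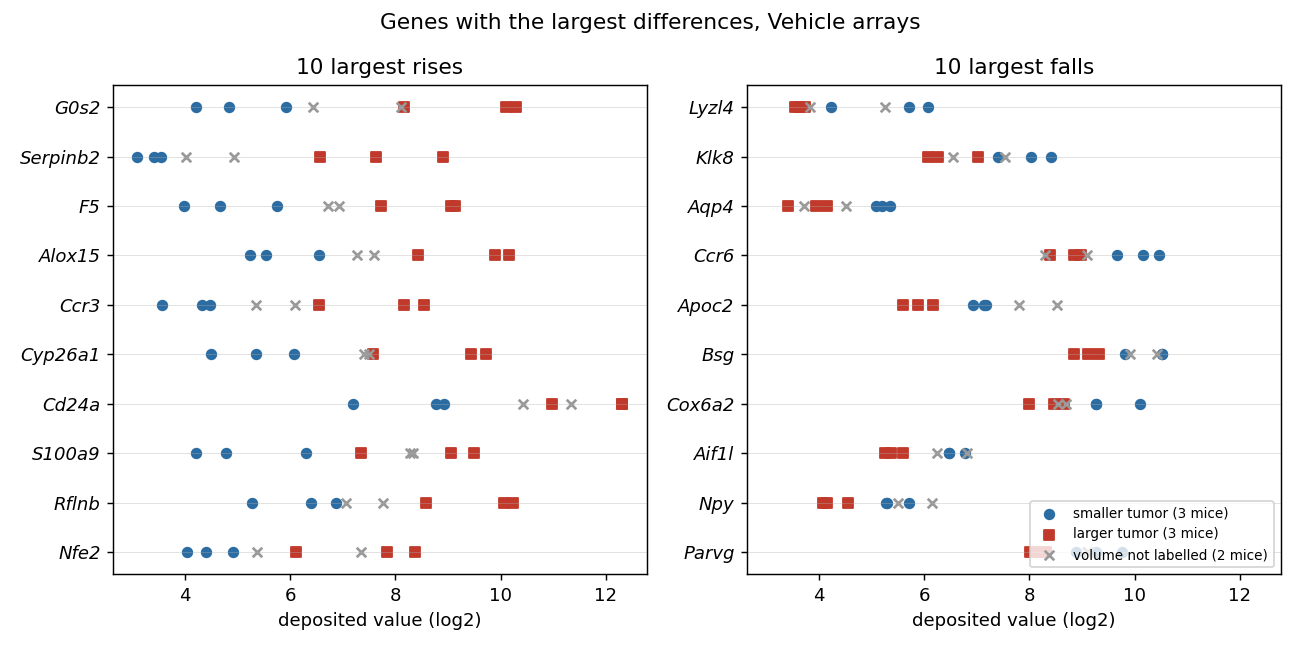
Deposited log2 value (horizontal axis) of the 10 genes with the largest rise (left) and the 10 with the largest fall (right) in each Vehicle mouse: smaller tumors (circles, n = 3), larger tumors (squares, n = 3) and mice with no labelled volume (crosses, n = 2). The 10 rises were between 2.99 and 4.53 log2, and the 10 falls between -1.70 and -1.14, and crosses fall between the sides for most of the rises but not for most of the falls.

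The 10 largest falls lay between -1.70 and -1.14. Lyzl4, a lysozyme-like gene, was at 5.71, 4.23 and 6.07 in smaller and 3.74, 3.62 and 3.54 in larger tumors, a difference of -1.70 ± 0.42 (adjusted p = 0.0496) whose sign turned to 0.16 with the array SD as a covariate. Klk8, a serine protease, was at 8.03, 8.42 and 7.41 against 7.02, 6.08 and 6.27 and fell by 1.50. Ccr6, a chemokine receptor, was at 10.47, 10.16 and 9.67 against 8.98, 8.40 and 8.84 and fell by 1.36. The sides did not overlap in any of the 3 genes.

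Aqp4, the water channel of astrocyte end-feet, fell by 1.38 from a low level, and is taken up with the other astrocyte genes. Apoc2, the activator of lipoprotein lipase that macrophages secrete, was at 7.18, 7.13 and 6.93 against 6.17, 5.60 and 5.88 and fell by 1.19. Vehicle replicates 1 and 2 were higher than either side for Apoc2, at 8.52 and 7.81. The remaining 5 were Bsg, a chaperone of lactate transporters (-1.18), Cox6a2, a subunit of cytochrome c oxidase (-1.18), Aif1l, related to the macrophage gene Aif1 (-1.17, although another of its 3 probe sets differed by 0.41), Npy, neuropeptide Y (-1.16), and Parvg, an actin-linked adaptor of leukocytes (-1.14). Of the 10 falls, 9 passed after repeated quantile normalization, and Lyzl4 did not (adjusted p = 0.0795).

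Genes that define microglia were lower in the larger tumors. Of 17 measured microglia identity genes 16 had a negative difference and 8 had sides that did not overlap, but 2 passed the test, both lower, with a list median of -0.58 against -0.038 over all genes. The 2 are 11.8% of the list, against 3.86% of all genes called lower, and the 8 are 47.1%, against 21.4% of all genes. Mef2c, a transcription factor that restrains microglial activation, was at 10.52, 10.36 and 10.04 against 9.43, 9.39 and 9.24, a fall of 0.96 (SE 0.16, adjusted p = 0.0351). All 5 Mef2c probe sets had a negative difference, from -0.96 to -0.17. Tmem119, a membrane protein that marks microglia among brain macrophages, was at 12, 11.85 and 11.27 against 10.97, 10.68 and 10.86, with a difference of -0.86 ± 0.20 (adjusted p = 0.0457).

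Other microglial genes had values on the same side without passing. P2ry12, the purinergic receptor of resting microglia, was at 11.73, 11.78 and 12.12 against 11.65, 11.10 and 11.27, a difference of -0.53 ± 0.18 (adjusted p = 0.0939). Cx3cr1, the fractalkine receptor, differed by -0.58 (adjusted p = 0.0877) and Trem2, a lipid-sensing receptor, by -0.80 (adjusted p = 0.064). Mertk, a receptor for dying cells, was the member with a positive difference, at 0.07. Array 8 stood apart on the smaller side. The median over the list of an array's value minus the mean of the 6 arrays was 0.55 on array 3 and 0.45 on array 4 but -0.13 on array 8, next to -0.14, -0.38 and -0.41 on larger-side arrays 5, 6 and 7. Without array 8, 10 of the 17 passed as lower. In sorted bulk RNA, fewer cells of a type and less RNA per cell cannot be told apart.

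Genes of monocyte-derived macrophages showed rises in some members. Of 21 measured, 4 rose (19.0%, against 4.56% of all genes) and 0 fell, with 15 positive differences. Cd44, the hyaluronan receptor, was at 7.79, 7.09 and 7.92 in smaller and 9.22, 8.85 and 9.50 in larger tumors and rose by 1.59 (SE 0.25, adjusted p = 0.0351). S100a10, the annexin A2 partner, rose by 1.50, S100a6, a calcium-binding protein, by 1.44, and Lgals3, the lectin galectin-3, by 1.18. The median of the list was 0.28, and -0.03 after each array was centred and scaled, so the list as a whole had no settled direction. Ccr2, the receptor that brings monocytes into tissue, was at 7.62, 8.41 and 8.66 against 8.03, 7.35 and 9.32, with overlapping sides and a difference of 0.01 ± 0.49. Disease-associated microglia genes had 0 of 17 past the test in either direction, with Gpnmb, a lysosomal glycoprotein, at 0.94 (adjusted p = 0.0577) and Cd9, a tetraspanin, at -0.45 (adjusted p = 0.0932).

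**Figure D3:**
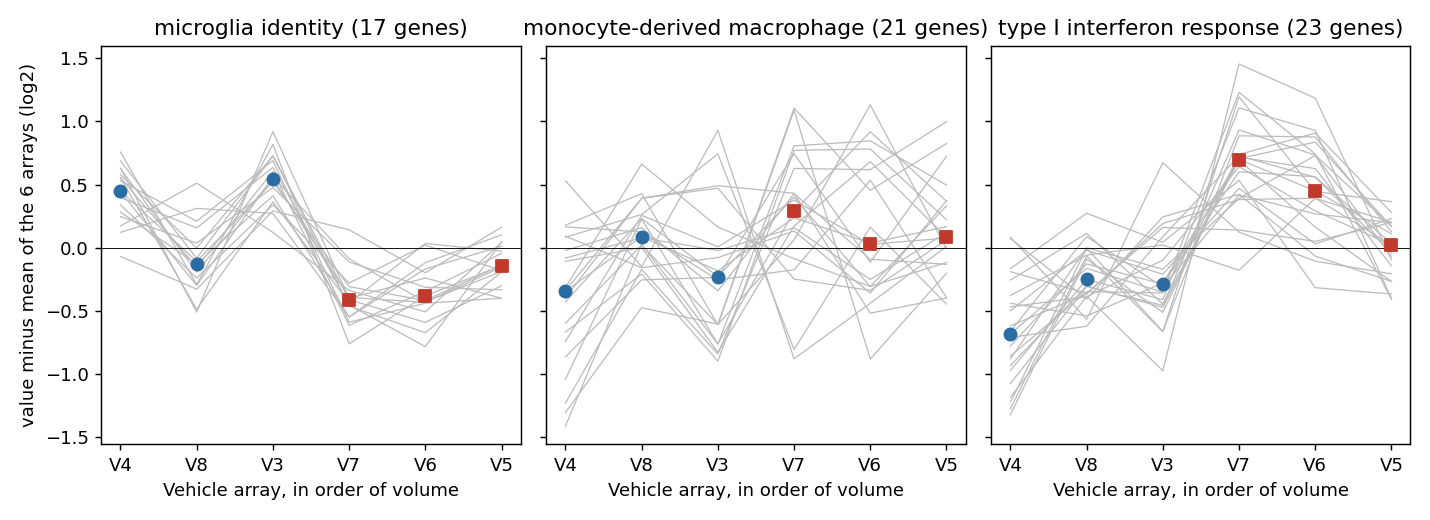
Each grey line is 1 gene of the list named above the panel, plotted as its value minus its mean over the 6 arrays (log2) on each Vehicle array, with arrays in order of labelled volume (V4 and V8 are equal at 11.9); circles (smaller, n = 3) and squares (larger, n = 3) are the medians over the list. Microglia identity genes were highest on arrays 3 and 4 (medians 0.55 and 0.45), and interferon genes highest on arrays 7 and 6 (0.69 and 0.45) and lowest on array 4 (-0.68).

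Interferon-induced genes were higher in the larger tumors. Type I interferons act through a cell surface receptor, and many of the antiviral genes they induce carry a short promoter element, the ISRE. Of 23 measured genes of this response 21 had a positive difference, 12 had sides that did not overlap (52.2%, against 17.7% of all genes), 6 rose (26.1%, against 4.56%) and 0 fell, with a median difference of 0.80. After repeated quantile normalization 0 of the 23 passed, and the median was 0.60. Without replicate 8, 9 rose. The ISRE letters GAAANNGAAA, searched on both strands in the 250 bases before each RefSeq start (GRCm38.p6), were present for 331 of 9888 genes with such a window (3.35%) and for 6 of the 16 interferon genes with one. Of the 6 interferon genes that rose, 3 have a window and 1 of these, Rsad2, holds the letters. All 6 stretches are shown, whatever the gene's difference, with the letters in capitals. Rsad2 lies at chr12:26456528-26456607 on the minus strand, Ifit1 at chr19:34640750-34640829 and Ifit3 at chr19:34583338-34583417 on the plus strand, and Oas1a at chr5:120907526-120907580 on the minus strand. Bst2 lies at chr8:71537558-71537637 on the minus strand and Stat2 at chr10:128270248-128270320 on the plus strand, all within the bases upstream of the start.
Rsad2: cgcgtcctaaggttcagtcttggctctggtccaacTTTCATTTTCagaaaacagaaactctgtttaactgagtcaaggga
Ifit1: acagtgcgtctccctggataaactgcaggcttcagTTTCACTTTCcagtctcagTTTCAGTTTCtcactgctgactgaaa
Ifit3: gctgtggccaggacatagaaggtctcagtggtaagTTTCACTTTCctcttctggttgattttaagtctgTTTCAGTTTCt
Oas1a: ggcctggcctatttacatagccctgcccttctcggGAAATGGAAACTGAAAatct
Bst2: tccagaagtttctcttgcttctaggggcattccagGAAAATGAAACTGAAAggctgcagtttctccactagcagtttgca
Stat2: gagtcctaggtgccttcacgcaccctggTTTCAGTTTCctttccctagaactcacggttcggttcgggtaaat

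Rsad2, which encodes the antiviral enzyme viperin and whose window holds 1 match, was at 8.60, 8.39 and 9.19 in smaller and 9.48, 10.76 and 11.03 in larger tumors. It rose by 1.70 ± 0.40 (adjusted p = 0.0457), the largest rise of the list. Array 5, from the largest tumor, was the lowest of the larger side and close to array 8. Ifit1, which binds viral RNA, differed by 1.26 with an adjusted p of 0.0548, Oas1a, a synthetase that activates RNase L, by 0.80 (adjusted p = 0.0605), and Ifit3, a partner of Ifit1, by 0.70 (adjusted p = 0.127). A match of letters is a description of the window and shows no binding in these cells.

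The other interferon genes that passed were sensors, enzymes and regulators. Rtp4, a chaperone with antiviral activity, was at 8.84, 8.38 and 9.01 against 9.48, 10.15 and 10.02 and rose by 1.14 (SE 0.23, adjusted p = 0.0401). The second Rtp4 probe set differed by 0.02. Ifih1, the cytosolic RNA sensor MDA5, rose by 1.23 and Oas2, another oligoadenylate synthetase, by 0.84. Ifi47, an interferon-induced GTPase, rose by 1.34 and Usp18, which shuts off receptor signalling, by 1.28. Of the transcription factors, Irf7, Irf9 and Stat2 had differences of 0.53, 0.26 and 0.06 and none passed. Bst2, a membrane tether of viruses whose window holds 2 matches, and Lgals3bp had negative differences of -0.10 and -0.12. The order of the arrays differed from that of the leading rises. Array 5 had a list median of 0.02 relative to the mean of the 6 arrays, against 0.45 and 0.69 on arrays 6 and 7, and array 4 had -0.68.

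Secreted proteases and matrix genes rose in part. Of 20 measured 4 rose (20.0%, against 4.56% of all genes) and 0 fell, and the median was 0.70. Mmp9, gelatinase B, was at 5.82, 5.68 and 5.30 in smaller and 8.66, 7.35 and 8.68 in larger tumors, a rise of 2.63 ± 0.35 (adjusted p = 0.034). Mmp13, a collagenase, was at 3.52, 3.71 and 4.80 against 5.20, 7.30 and 6.33 and rose by 2.27, with array 6 the highest, where it had been the lowest for Mmp9. Adam8, a sheddase of activated leukocytes, rose by 1.72 ± 0.23 (adjusted p = 0.0332), and Serpinb2, described above, was the fourth. Mmp12, the macrophage elastase, differed by 1.54 with an adjusted p of 0.0546.

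Genes of alternative activation, the program that IL-4 and tissue repair induce, gave 7 rises (28%, against 4.56% of all genes) and 0 falls of 25, with a median of 0.60. The list holds genes that the study of these samples had singled out, such as Arg1 and Mrc1, so it is not independent evidence of a direction. Il1rn, the antagonist of the IL-1 receptor, was at 6.08, 5.03 and 5.76 against 8.80, 7.57 and 9.38 and rose by 2.96 ± 0.46 (adjusted p = 0.0351). Il1r2, the decoy receptor for IL-1, rose by 2.11, Retnla, a secreted marker of IL-4 exposure, by 2.79, Egr2 by 1.64 and Socs2, a cytokine signalling inhibitor, by 1.03.

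Mrc1, the mannose receptor, was at 8.96, 9.08 and 8.95 in smaller and 10.04, 9.77 and 10.55 in larger tumors and rose by 1.12 ± 0.20 (adjusted p = 0.0367). Lyve1, which with Mrc1 also marks perivascular macrophages, rose by 1.23, although its second probe set differed by -0.09. Of the 10 measured perivascular markers these were the 2 that passed (20.0%, against 4.56% of all genes called higher), and the median was 0.17. Cd163, a scavenger receptor of those cells, had a difference of 0.06 (adjusted p = 0.914). Arg1, arginase 1, was at 10.26, 9.99 and 11.20 against 10.79, 11.55 and 12.91. Its sides overlapped, and the difference of 1.27 ± 0.53 did not pass (adjusted p = 0.141).

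Genes of classical activation, induced through NF-kappaB, rose in 3 of 22 (13.6%, against 4.56% of all genes) and fell in 0, with a median of 0.65. Ptgs2, the inducible cyclooxygenase, was at 5.28, 5.95 and 6.11 against 7.63, 8.29 and 8.40 and rose by 2.33 ± 0.27 (adjusted p = 0.0309). Nfkbiz, an inducible regulator of NF-kappaB targets, rose by 1.50, and Il1b, the cytokine that Il1rn antagonizes, by 1.10. Il6 differed by 1.66 (adjusted p = 0.0615), Tnf by 0.66 (adjusted p = 0.0957) and Nos2, the inducible nitric oxide synthase, by -0.40 (adjusted p = 0.0801). The cytokine Il1b, its antagonist Il1rn and its decoy Il1r2 were thus all among the rises.

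Of 22 chemokines 1 passed (4.55%, the share of all genes that rose being 4.56%). Cxcl2, which attracts neutrophils, was at 5.44, 5.65 and 5.82 in smaller and 7.92, 7.79 and 8.68 in larger tumors, a rise of 2.50 ± 0.24 (adjusted p = 0.0217). The sides were about 2 log2 units apart, and unlabelled replicates 1 and 2 were split, at 7.97 and 5.44. Ccl2, which recruits monocytes, differed by 0.03 and Cxcl10, an interferon target, by 0.66 (adjusted p = 0.214). The list median was 0.52.

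**Figure D4:**
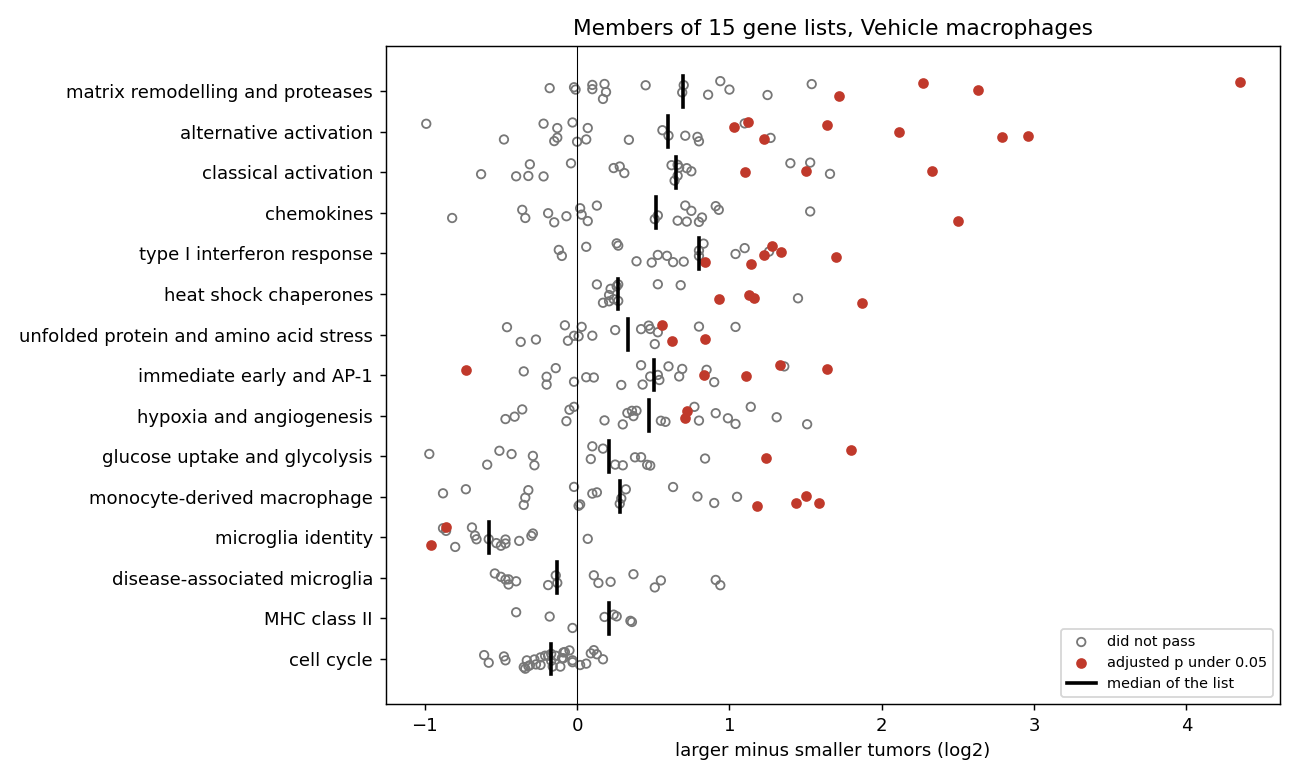
Difference between larger and smaller tumors (log2, horizontal axis) of each member of 15 gene lists; filled points passed at an adjusted p under 0.05, open points did not, and bars are list medians. The medians run from 0.80 for the interferon response and 0.70 for matrix genes down to -0.58 for microglia identity, and filled points are a minority in every list shown.

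Stress-response genes rose in part. Of 16 heat shock chaperones 4 rose (25.0%, against 4.56% of all genes) and 0 fell. All 16 differences were positive, against 5758 of 12394 over all genes, with a median of 0.27. The median was 0.07 after each array was centred and scaled, and 2 of the 16 passed after repeated quantile normalization. Hsph1, the HSP110 chaperone, was at 7.70, 7.83 and 7.58 against 9.0, 8.69 and 8.80 and rose by 1.13 ± 0.14 (adjusted p = 0.0309). Dnajb4 and Dnaja1, HSP40 co-chaperones, rose by 0.93 and 1.16. Hspa1a, inducible HSP70, was at 6.72, 6.56 and 8.27 against 8.52, 9.14 and 9.50 and rose by 1.87 ± 0.46 (adjusted p = 0.0484), with array 8 close to the larger side. Hspa1b, its near-identical copy, differed by 1.45 (adjusted p = 0.159), and probe sets of this pair may share target sequence. The heat shock element GAANNTTCNNGAA or TTCNNGAANNTTC was found before the start of 2 of 13 chaperone genes with a window, Hspd1 and Hspe1, and of 0.465% of all 9888, and in 0 of the 4 that rose. The Hspd1 and Hspe1 stretches overlap on opposite strands of chromosome 1. They hold the same letters, so they are not separate sites.

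Of 20 genes of the unfolded protein and amino acid stress response 3 rose (15.0%, against 4.56% of all genes) and 0 fell. Xbp1, a transcription factor of that response, rose by 0.84, Ddit3, which encodes CHOP, by 0.62, and Creld2, an endoplasmic reticulum protein, by 0.56. Of 24 immediate early genes, which respond within minutes to stimulation or to tissue dissociation, 4 rose (16.7%) and 1 fell (4.17%, against 3.86% of all genes). Klf2 rose by 1.33, Atf3 by 1.11, Klf6 by 0.83 and Egr2 by 1.64, and Egr3 fell by 0.73. Fos and Jun, the founding members of AP-1, had differences of 0.54 (adjusted p = 0.177) and 0.11 (adjusted p = 0.769). Every mouse's tumor was digested with papain before sorting. The time that each digestion and sort took is not given in the sources used here.

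Hypoxia and glucose uptake genes showed few calls. Slc2a3, the high-affinity glucose transporter GLUT3, was at 7.85, 8.14 and 8.03 against 9.78, 9.60 and 10.04 and rose by 1.80 ± 0.16 (adjusted p = 0.0163). Its 4 probe sets disagreed, with 2 of the same sign and a range from -0.31 to 2.02. Pfkp, a phosphofructokinase, rose by 1.24, although its second probe set differed by 0.08. The other 16 glycolysis genes did not pass. The 2 rises were 11.1% of the list, against 4.56% of all genes. The median of that list was 0.21, and -0.10 after centring and scaling. Of 24 hypoxia and angiogenesis genes 2 rose (8.33%, against 4.56%) and 0 fell, with a median of 0.47. They were Car9, a carbonic anhydrase, and Kdm3a, a histone demethylase, by 0.72 and 0.71. Vegfa, the vascular growth factor, was at 6.00, 6.12 and 6.40 against 6.32, 7.99 and 7.31, with overlapping sides and a difference of 1.04 ± 0.38 (adjusted p = 0.105). Its other probe set differed by -0.04. Adm, adrenomedullin, overlapped too, with a difference of 1.31 ± 0.48 (adjusted p = 0.108).

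In lipid metabolism, 2 of 15 cholesterol synthesis genes rose (13.3%, against 4.56% of all genes), Fdft1 by 0.86 and Cyp51 by 0.79. Srebf2, the transcription factor that drives the pathway, fell by 0.61 (1 of 15, 6.67%, against 3.86% of all genes), although its second probe set differed by -0.12. Other probe sets of both risen genes went the other way, down to -0.61 for Fdft1 (2 of 4 with the same sign) and -0.36 for Cyp51 (2 of 3). Apoc2 and Fabp4, a fatty acid carrier (-0.62), were the 2 of 18 lipid handling genes that fell (11.1%), and 0 rose. The 4 Fabp4 probe sets ranged from -0.62 to -0.01. Of 21 phagocytosis and Fc receptor genes 1 fell, Itgam (4.76%, against 3.86% of all genes). Of 24 lysosomal genes 1 rose, Atp6v1h, a proton pump subunit, by 0.57 (4.17%, against 4.56%). Both shares were near those of all genes.

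Itgam encodes CD11b, the antigen used for the sort. It was at 10.83, 10.67 and 10.35 against 9.93, 9.82 and 9.56, a fall of 0.85 ± 0.17 (adjusted p = 0.0392). Aif1, the macrophage protein IBA1, fell by 0.62. The other 6 of the 8 sorted-cell markers did not pass, with Cd68 at -0.45, Adgre1 at 0.24 and Ptprc at 0.09.

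Receptors for CSF-1 and related cytokines, complement, TGF-beta signalling, ribosomal proteins, splicing and the respiratory chain each gave 1 or 2 calls, between 2.44% and 9.09% of a list in the direction of the call, against 4.56% higher and 3.86% lower over all genes. Csf2rb, the shared receptor chain for GM-CSF, IL-3 and IL-5, rose by 0.58 as 1 of 17 receptor-list genes. Cd55, a complement regulator, rose by 1.52 as 1 of 11, and Ltbp1, which stores latent TGF-beta, by 0.85 as 1 of 18. Both were low on arrays 3, 4 and 8 of the smaller side, at 2.80, 3.09 and 2.49 for Cd55 and 2.66, 2.84 and 2.87 for Ltbp1. The Y chromosome gene Eif2s3y read 2.29, 2.39 and 2.61 in female replicates 3, 6 and 8. Of 30 ribosomal protein genes Rpl14 rose by 0.89. Of 30 splicing genes Clk4, a splicing kinase, and Luc7l3 rose by 1.06 and 0.64, with a second Luc7l3 probe set at -0.18. Of 41 respiratory chain genes Sdhc, a subunit of succinate dehydrogenase, fell by 0.75, although its second probe set differed by -0.1.

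Proliferation and antigen presentation gave no calls. Of 33 cell cycle genes 0 passed, with a median of -0.17. Mki67, the proliferation antigen, was at 8.69, 9.96 and 9.48 against 8.61, 10.21 and 9.05, fully overlapping. Of 8 MHC class II genes and of 14 MHC class I genes 0 passed. Cd74, the class II invariant chain, was at 12.31, 11.46 and 10.67 against 11.07, 10.45 and 12.37, with a difference of -0.18 ± 0.54. With that standard error a 2-fold change was not detectable in 3 mice a side. Igf1, a growth factor that macrophages secrete, differed by 0.37 ± 0.33 (adjusted p = 0.457).

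Markers of other cells moved with the sides in some lists. Of 9 measured neutrophil genes 5 had a positive and 4 a negative difference. The Gr1 antigen genes of this list, Ly6g and Ly6c1, were not measured. S100a9 and S100a8 rose (22.2% of the list, against 4.56% of all genes). Camp, a granule peptide, fell by 0.62 (11.1%, against 3.86%). S100a8 was at 5.12, 4.93 and 5.47 against 9.40, 6.57 and 7.32 and rose by 2.59 ± 0.63 (adjusted p = 0.048). The list's summed level, as a mean, was 4.21 to 4.47 on the smaller and 4.54 to 5.23 on the larger side. The other 6 did not pass, with differences of 1.24 for Ngp, 0.43 for Cxcr2, 0.05 for Lcn2, -0.18 for Ltf, -0.61 for Elane and -0.89 for Mpo. The part of neutrophil RNA in the rises was not tested.

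Fibroblast and pericyte markers were higher without passing. Of 11 measured 10 had positive differences, 0 passed, and the median was 1.15. Col1a2, a collagen chain, was at 7.79, 7.71 and 8.82 against 9.32, 10.84 and 9.10, a difference of 1.64 ± 0.48 (adjusted p = 0.0679). Col3a1 differed by 1.46 (adjusted p = 0.0726). Array 6 was the highest for both, and the marker mean was 6.85 to 7.49 on the smaller and 7.31 to 9.09 on the larger side. Array 6 was also the highest for Mmp13 above and the lowest for the 10 leading rises.

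Among markers of neural cells, Aqp4 and Gfap, 2 of 9 astrocyte genes (22.2%, against 3.86% of all genes), fell. Aqp4 was at 5.20, 5.08 and 5.36 against 3.94, 4.16 and 3.41, a fall of 1.38 (SE 0.20, adjusted p = 0.0351), and Gfap, the intermediate filament of astrocytes, fell by 0.72. The astrocyte marker mean was 5.98 to 6.29 against 5.70 to 6.08. Of 13 glioma and oligodendrocyte precursor genes 0 passed. Pdgfra, the receptor for the growth factor family that started these tumors, was at 8.03, 7.73 and 8.21 against 9.41, 10.51 and 7.85, with overlapping sides and a difference of 1.27 ± 0.58 (adjusted p = 0.167). With the mean of these glioma markers as a covariate 909 genes changed.

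The remaining marker lists gave 1 call. Cd3e, a T cell receptor chain, fell by 0.59 as 1 of 10 T cell genes (10.0%, against 3.86% of all genes). Natural killer, B, dendritic, mast, erythroid, oligodendrocyte, neuron and endothelial genes had 0 members past the test. Kit, a receptor of mast cells and progenitors, differed by 1.39 (adjusted p = 0.0533), and Klrd1, a natural killer cell receptor, by -0.85 (adjusted p = 0.144). T cell marker means overlapped, at 3.99 to 4.12 and 3.93 to 4.05. The part of admixed cells in any of the differences was not tested beyond the fit with the glioma markers. No list of eosinophil markers was among those chosen, so the part of such cells in rises such as that of Ccr3 was not tested.

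The same genes were then set against the spread of the arrays in mice that the comparison had not used. A slope of each gene on array SD was fitted in the other 10 arrays, 2 Vehicle and 8 BLZ945, with agent as a covariate and per 0.1 of SD. In that fit 1508 genes rose with the SD (12.2%) and 2033 fell (16.4%). Of the 565 genes higher in larger tumors 536 had a positive slope, 286 of them past the test, and 0 had a negative slope past it. Of the 479 lower genes 466 had a negative slope, 307 past the test. For all genes the share with the same sign was 4389 of 5758 with a positive difference and 5628 of 6636 with a negative one. The correlation across 12394 genes between the difference and the slope was 0.69. It is a description, since genes are not independent and all points share the platform and its normalization. The array SD is also computed from these same values, and the changed genes were called between sides of unlike SD. Agreement of sign is therefore partly built in. The width of the array values thus moved with these genes in other mice, whose own tumor volumes and ages also varied.

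**Figure D5:**
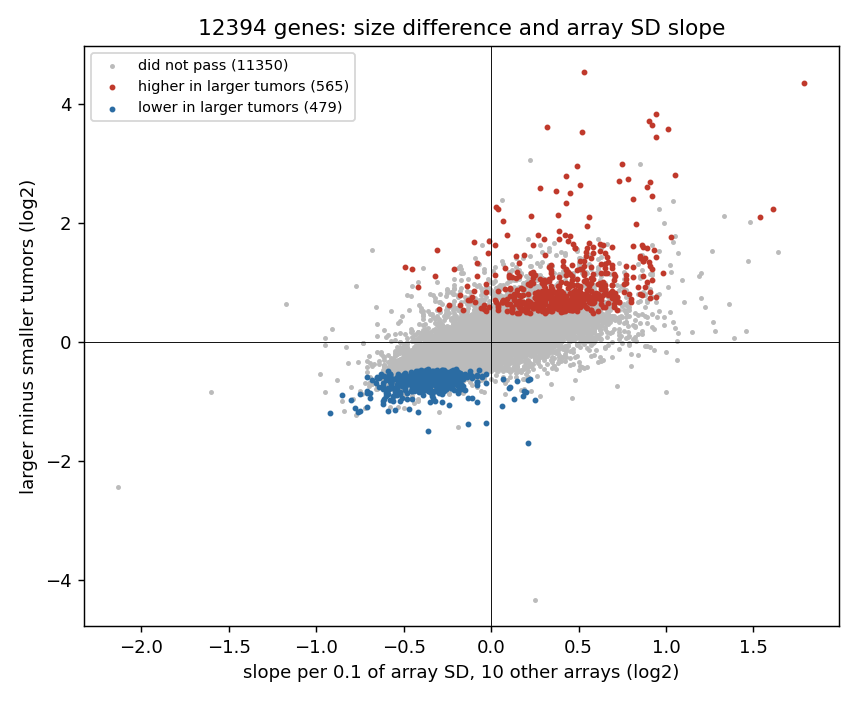
Each point is 1 of 12394 genes: its slope on array SD in the 10 other arrays (horizontal axis, log2 per 0.1 of SD) and its difference between larger and smaller tumors (vertical axis, log2). Of the 565 higher genes 536 lie right of 0 and of the 479 lower genes 466 lie left of 0, and the highest points at the top are far above the main cloud.

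Of the 10 leading rises all had a positive slope on array SD, from 0.32 for Cyp26a1 to 1.79 for Serpinb2 per 0.1 of SD, and 1 passed in that fit. Of the 162 rises of at least 1 log2 unit 152 had a positive slope and 44 of these passed. Of the 16 heat shock chaperones, 6 rose with array SD past the test (12.2% of all genes did) and 1 fell (16.4% of all genes did). Direction also went with brightness. In the brighter part of the genes 429 rose and 94 fell, and in the dimmer part, of equal size, 136 rose and 385 fell.

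Of the 1044 changed genes, 42 had an SD slope of the opposite sign, and 0 of these slopes passed. Their slopes ran from -0.49 for Vsig4 to 0.25, and many were near 0, such as -0.02 for Nfkbiz and 0.07 for Aif1. Among the higher ones were Cxcr4, a chemokine receptor (1.67), Slpi, a protease inhibitor (1.54), Nfkbiz, Nfil3, a transcription factor (1.32), Vsig4, a complement receptor of resident macrophages (1.26), Lyve1 and Il1b. Among the lower ones were Lyzl4, Mef2c, Itgam and Aif1. These were chosen after their values were seen. Cxcr4 was at 8.37, 7.87 and 7.42 in smaller and 9.94, 8.74 and 9.98 in larger tumors, and Vsig4 at 4.14, 3.86 and 4.92 against 5.74, 5.68 and 5.27. Neither gene's sides overlapped. With the array SD as a covariate Vsig4 had the smallest p among higher genes, a difference of 3.46 with an adjusted p of 0.251, so it did not pass.

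Tumor volume was also labelled for the 8 BLZ945 mice, from 41.3 to 132.3, above the whole Vehicle range. If the label is in mm3, all 8 lie above the enrolment limit of 40, so what the labelled volume measures in these mice is uncertain. A slope on log2 volume in those arrays gave 0 genes past limma's test, with 846 at an unadjusted p under 0.05. Of the 565 higher genes 420 and of the 479 lower genes 398 had a BLZ945 slope of the same sign, against 3811 of 5758 and 4815 of 6636 over all genes of the same sign of difference. Of the 10 leading rises 1 had a positive slope: G0s2, at 0.01, while Serpinb2 was at -0.18 and F5 at -0.46. A direct test of whether the volume slope differed between the agents gave 0 genes, with 612 at an unadjusted p under 0.05. Cdo1, a cysteine dioxygenase, had the smallest p among the rising BLZ945 slopes (1.4 per log2 unit of volume, adjusted p = 0.653). It was also higher in larger Vehicle tumors, at 5.87, 5.78 and 6.36 against 7.22, 7.17 and 6.99, a rise of 1.13 ± 0.18 (adjusted p = 0.0351).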

How the data were processed

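Biotin-labelled RNA from sorted macrophages was hybridised to Affymetrix 3′ arrays, 1 per mouse. The authors deposited log2 values for 22690 probe sets on 16 arrays. GCOS 1.4 and RMA were used, per the submitters' processing notes, which give no settings. RMA corrects background, quantile-normalizes and summarises probes, and it compresses differences of dim probe sets. Whether all 16 arrays were normalized together is not given in the sources used here. The array SDs differ, from 2.22 to 2.49, although quantile normalization gives arrays 1 distribution before probes are summarised. Depth does not apply to arrays, whose number limits the precision. Probe sets were named through the platform annotation: 20393 had 1 symbol, 691 several and 1606 none. Among probe sets with 1 symbol, the brightest on average across the 16 arrays stood for each of 12394 genes, with no filter on low values.

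The 3 larger and 3 smaller Vehicle tumors were compared with limma 3.58.1 in R 4.3.3 (lmFit, eBayes, no covariate), with Benjamini-Hochberg adjustment over all genes and a threshold of 0.05. The 2 array properties were compared by exact two-sided permutation. Each array is a separate animal, and no array repeated another (correlations of at most 0.991). Alternatives covered the probe set chosen, dim genes, normalization, eBayes settings, array weights, covariates, age, a volume slope and leaving out each array. The 3′ minus 5′ covariate and the slope on array SD in the other 10 arrays were chosen after seeing the data. The fits were tested on simulated data.

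The comparison, the 27 gene lists and the 15 marker lists were chosen with earlier results of these data known. Of 770 list entries 683 were measured. Named genes are the 10 largest rises and falls, up to 4 called members of each list with the smallest p or else 2, 16 fixed genes (Spp1 and Ddx3y had no probe set with 1 symbol), and the 3 leading genes in each direction of the array SD and BLZ945 fits. Other genes named were chosen after their values were seen. Promoter windows came from RefSeq (GRCm38.p6).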

Additional observations from a re-analysis of the deposited data

Results flagged for a closer look

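Apoc2, one of the 10 largest falls, had 1 BLZ945 array far from the other 7. Replicate 5 was at 9.34, and the others were between 4.96 and 6.78. The gap to the nearest value was 0.585 of the whole range, above Dixon's critical value for 8 arrays. Among 22 measures tested this way 1 was set apart, and chance sets apart about 1 in 20 such groups. The BLZ945 arrays did not enter the comparison of larger with smaller tumors.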

How the results depend on the processing

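No paired analysis was possible because the larger and smaller sides share no replicate number. Against 1044 changed genes, 490 changed with dim genes left out (82.4% higher), 293 with quantile normalization repeated, 687 with centring and scaling, 2490 with array weights, 3 with all 16 arrays, 3 with sex as a covariate, and 0 with the array SD, the age cohort or the 3′ minus 5′ difference as a covariate, as a slope on log2 volume, or in mice of 11.29 weeks only. Leaving out 1 array gave 0 to 1543. The count stayed within 1.5 times with another probe set per gene (1343 or 1446), trend and robust settings (1103) and the glioma markers as a covariate (909). Lyzl4 reversed to 0.16 with the array SD as a covariate. The other 19 leading genes kept their sign in every alternative run. Their sides did not overlap, so leaving out an array, or fitting sex or age, could not change it. The difference in array SD of 0.11 was 0.0972 to 0.119 without 1 array, 0.368 as an interquartile range and 0.138 over the genes used, and that of the 3′ minus 5′ value, 0.314, was 0.208 to 0.41 without 1 array and 0.158 against the middle probe sets. The BLZ945 volume slope gave 0 genes under all alternatives run, with 545 to 2970 at an unadjusted p under 0.05. The cause of these shifts was not tested.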

Other observations

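Some genes outside the lists separated the sides with little spread, and they were chosen after their values were seen. Rgcc, a regulator of the cell cycle induced by complement, was at 5.12, 4.93 and 5.13 in smaller tumors against 7.24, 6.89 and 7.46 in larger ones, a rise of 2.13 ± 0.17 (SE, adjusted p = 0.0163 by limma). Vcl, the focal adhesion protein vinculin, was at 6.47, 6.19 and 6.46 against 7.88, 8.00 and 7.88 and rose by 1.54 ± 0.13 (adjusted p = 0.0163). Unlabelled Vehicle replicates 1 and 2 lay between the sides for both genes, at 5.74 and 6.59 for Rgcc and at 6.96 and 6.99 for Vcl. Both genes had a positive slope on array SD in the other 10 arrays, of 0.38 and 0.93 per 0.1 of SD.

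Genes of the guanylate-binding family, which type II interferon induces, varied widely within the sides. Gbp6 was at 5.39, 4.23 and 4.26 in smaller tumors and 5.24, 6.90 and 8.06 in larger ones, a difference of 2.11 ± 0.66 that did not pass (adjusted p = 0.0774). Array 5, from the largest tumor, lay within the range of the smaller side. Adamdec1, a macrophage protease, was at 6.12, 4.74 and 4.93 against 8.38, 6.17 and 10.43, a difference of 3.06 ± 0.95 that also did not pass (adjusted p = 0.0754).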
